A study of Sus scrofa domesticus with 28 samples.

Results

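The genes described here code for the proteins of the cytosolic ribosome. Members are the pig genes whose symbol starts with RPL or RPS followed by a digit, together with RPLP0, RPLP1, RPLP2 and RPSA, with the RPS6K kinases left out. Probes were matched to genes through the RefSeq transcript named for each probe, which found 37 genes of 84 such symbols in the RefSeq table of the pig, read by 188 of 43603 probes. The 37 are 16 proteins of the large subunit, 16 of the small subunit, the stalk proteins RPLP0 and RPLP2, the paralogues RPL26L1 and RPL36AL, and RPL7L1, a nucleolar relative of RPL7 that is counted by its symbol and is no subunit of the mature ribosome. They stand among 18765 tested features, of which 2646 carry a gene symbol.

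Each ribosome joins a small subunit, which holds the messenger RNA and reads its codons, to a large subunit, which links the amino acids. The proteins of both subunits sit on ribosomal RNA in fixed proportions, and surplus copies that find no place in a subunit are degraded in most cell types. Their messenger RNAs are among the most abundant of a cell, share a pyrimidine-rich start that places their translation under control of the growth regulator mTOR, and are usually made in step with cell growth. Growing scar and epidermis both need many ribosomes, since collagen and keratin are made in bulk.

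The study followed wound healing and scar formation in juvenile castrated male red Duroc pigs, a breed used as a model of thick scars, in relation to abnormal pigmentation. Biopsies came from 2 animals, numbered 49 and 50, and from the right (R) or left (L) side, and 1 array was hybridised per biopsy. Control skin is represented by 4 biopsies, and early scar, all sham treated, by 4 hyperpigmented (hyper) and 4 hypopigmented (hypo) biopsies. Mid and late scar have 8 biopsies each, 2 for every combination of pigmentation with sham or pressure treatment. The labels give neither an age in days nor a pressure dose. All pressure biopsies came from the right side and all mid and late sham biopsies from the left, and a further code in the sample titles separates all hyper from all hypo biopsies, so pressure and side, and pigmentation and whatever the code marks, cannot be told apart. Every p below reflects how much biopsies of these 2 pigs vary and says nothing about variation among pigs in general.

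Every array set biopsy RNA in Cy5 against a universal pig reference RNA in Cy3. A level below is the log2 ratio of biopsy to reference for a gene's brightest probe, and a difference is a log2 difference ± SE from limma with Benjamini-Hochberg adjusted p over all 18765 features. A feature is called past the threshold at an adjusted p under 0.05. All 188 probes were well above background on all 28 arrays and none was saturated, and 5 of 1036 gene values were missing because the scanner program had set the spot aside. The members are bright: the quartiles of their mean Cy5 signal were 14.65 and 15.8 on the log2 scale, against a median of 7.28 over all features. Since this is whole tissue, fewer cells with many ribosomes and less of these RNAs per cell cannot be told apart. Ribosomal protein genes have many near-identical copies and pseudogenes in mammalian genomes, and how far these add to a probe's signal was not tested.

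In control skin 35 of the 37 genes had a mean above the reference. The highest control means were those of RPS12 (1.57), RPS23 (1.40) and RPS18 (1.30), and the lowest were RPL13A (-0.21) and RPL7L1 (-0.01). Because each gene is set against its own reference level, these ratios do not order the genes by abundance. The median member was at 0.53 to 0.96 on the 4 control arrays. It was at 0.23 to 0.61 on the 8 early, 0.16 to 0.60 on the 8 mid and 0.16 to 0.80 on the 8 late scar arrays, so the ranges of control and scar overlapped.

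**Figure D1:**
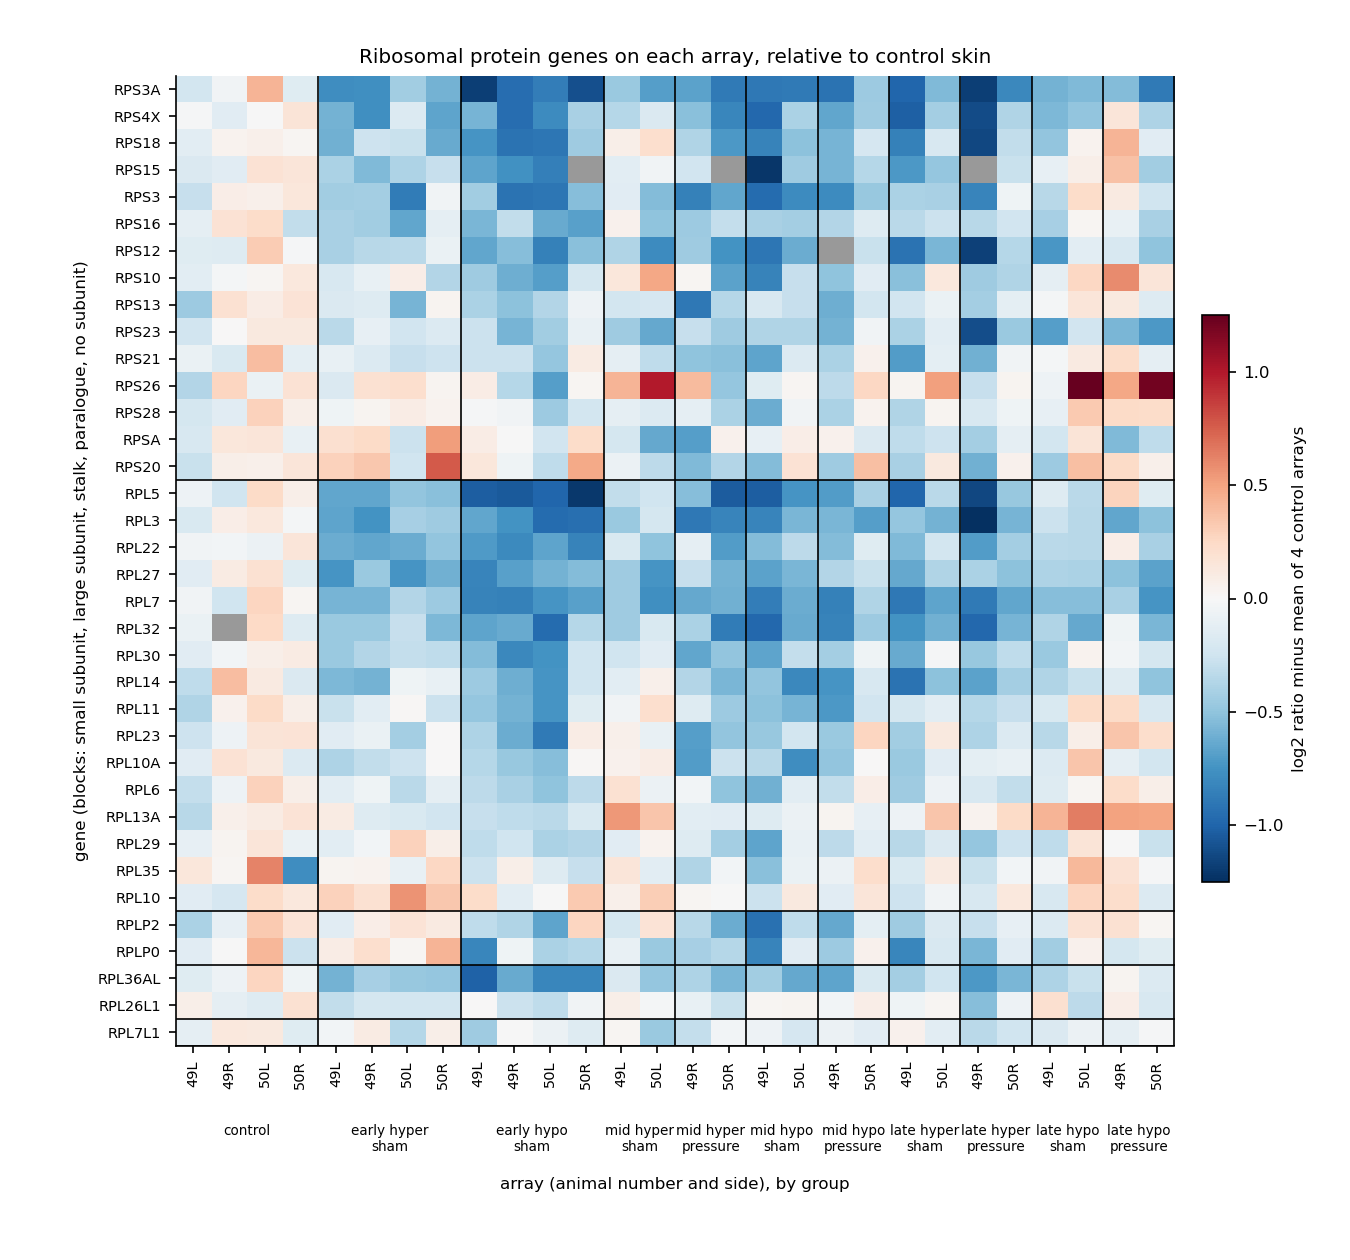
Heat map of 36 genes (vertical axis, in blocks by role and ordered by the early difference) on the 28 arrays (horizontal axis, by group, named by animal and side). Colour is the log2 ratio minus the gene's mean over the 4 control arrays, blue for lower and red for higher, with missing values in grey. Most scar columns are blue from RPS3A to RPS12 and from RPL5 to RPL14, and the darkest red cells are those of RPS26 on the late hypo arrays of animal 50, at levels of 2.03 and 1.92. Those late hypo arrays had the lowest shares of probes well above background, 31.4 and 33.9%.

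In early scar 16 of the 37 genes were lower than in control skin and none was higher. The background for this count was 14.8% of all features called lower and 24.1% called higher. The 16 are 8 of 16 large subunit genes, 7 of 16 small subunit genes and the paralogue RPL36AL. The median difference of the members was -0.32, where the median of all features was 0.11, and 34 of 37 members lay below 0. For 12 members every early biopsy was lower than every control biopsy, against 10.8% of all features. Differences were modest: the largest fold was 0.561, and the called members lay between -0.42 and -0.84.

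RPS3A, a protein of the small subunit's surface, had the largest early difference. Its control levels were 1.12 (49R), 0.94 (49L), 1.59 (50L) and 1.02 (50R), and its early scar levels ran from -0.01 through a median of 0.34 to 0.73. All 8 early biopsies were below all 4 controls, and the difference was -0.84 ± 0.13 (adjusted p = 5.73e-05). RPL5, which with RPL11 carries the small RNA of the large subunit, was at 1.02, 1.21, 1.51 and 1.35 in the same order of controls, and at 0.07 to 0.78 (median 0.45) in early scar. Again no early biopsy reached the lowest control, and RPL5 fell by 0.83 ± 0.14 (adjusted p = 0.000148). Its partner RPL11, read by its brightest probe, was 0.33 ± 0.14 lower in the mean, with an adjusted p of 0.064, and its groups overlapped. Of the 3 RPL11 probes, 2 were called lower.

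Of the other large subunit genes, RPL3, which reaches into the catalytic centre, went from control levels of 1.32, 1.04, 1.37 and 1.21 to 0.27 to 0.82 (median 0.54) in early scar. The difference was -0.70 ± 0.12 (adjusted p = 0.000151), and control and early scar did not overlap. RPL22, an RNA-binding protein on the outer face of the subunit, was at 0.91, 0.90, 0.87 and 1.1 in controls and at 0.11 to 0.45 (median 0.30) in early scar, a difference of -0.67 ± 0.13 (adjusted p = 0.000312). RPL36AL, the intronless paralogue of RPL36A, was at 0.45, 0.36, 0.78 and 0.46 in controls and at -0.50 to 0.10 (median -0.10) in early scar. It fell by 0.66 ± 0.11 (adjusted p = 0.000148), and again the groups were apart. The remaining called large subunit genes were RPL7, RPL14, RPL27, RPL30 and RPL32, and the remaining called small subunit genes were RPS3, RPS4X, RPS12, RPS15, RPS16 and RPS18. The value of RPL32 rests on 3 controls, since the array of control 49R had none for it. Of the 16 early calls, those of RPL14, RPL32, RPS12 and RPS16 were lost without control 50L, with adjusted p of 0.0919, 0.106, 0.103 and 0.0577, and RPL14 was also lost without control 49R (adjusted p = 0.198) and without any 1 of 4 early biopsies (0.0527 to 0.065).

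The stalk recruits the elongation factors to the ribosome. Read by their brightest probes, its genes did not pass the threshold in any comparison with control. RPLP0, the stalk base and a common reference gene of PCR assays, was at 1.13 (49R), 0.99 (49L), 1.55 (50L) and 0.86 (50R) in controls and at 0.32 to 1.56 (median 1.12) in early scar. The acidic stalk protein RPLP2 was at 0.81, 0.52, 1.24 and 1.08 in controls and 0.25 to 1.18 (median 0.88) in early scar. Both overlapped widely, with differences of -0.10 ± 0.16 (adjusted p = 0.645) and -0.11 ± 0.15 (adjusted p = 0.593). The paralogue RPL26L1 (-0.20 ± 0.12, adjusted p = 0.18) and RPL7L1 (-0.11 ± 0.12, adjusted p = 0.474) did not pass either. For these genes a p above the threshold does not show equal levels.

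The 3 members with an early mean above control were RPL10, which joins late in assembly (0.22 ± 0.12, adjusted p = 0.137), RPS20, a protein of the small subunit's head (0.17 ± 0.20, adjusted p = 0.512), and RPSA, also known as a laminin receptor (0.09 ± 0.16, adjusted p = 0.665). None passed the threshold and each overlapped control. They were singled out here after their values were seen. For RPSA the side rests on the brightest probe: of its 6 probes, 5 lay below 0 in early scar and 1 was called lower.

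**Figure D2:**
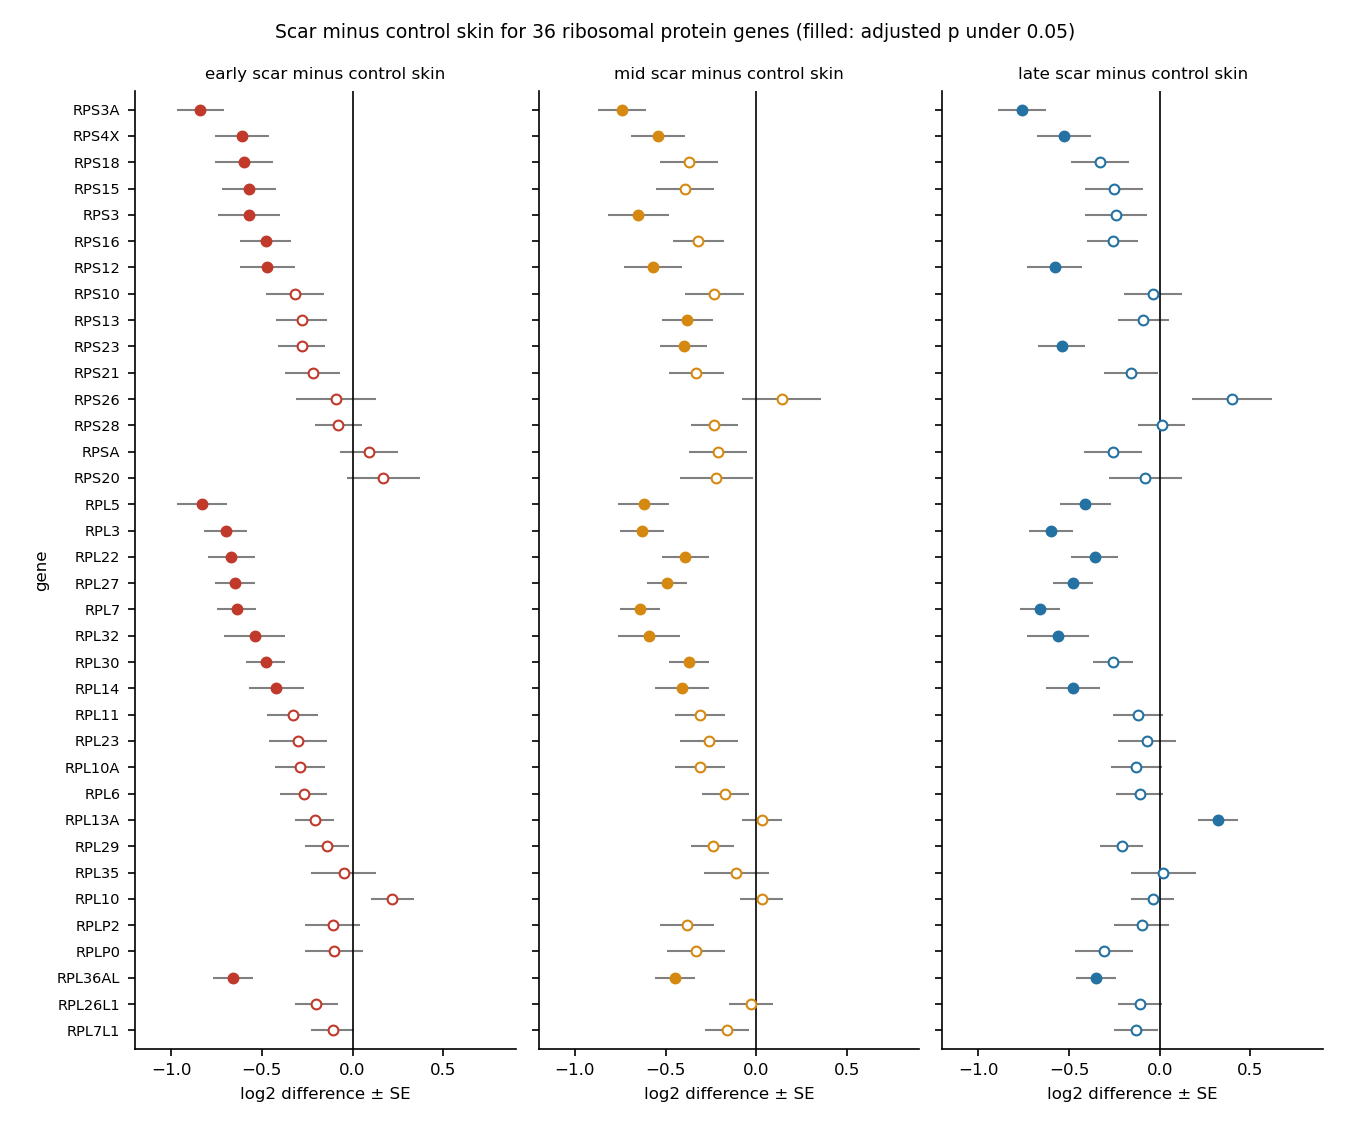
Log2 difference ± SE (horizontal axis) of scar from control skin for 36 genes (vertical axis) in early, mid and late scar, 8 scar against 4 control arrays each, from limma. Filled points have an adjusted p under 0.05. Filled points lie left of 0 except RPL13A in late scar at 0.32, and the stalk genes RPLP0 and RPLP2 are open in all 3 panels.

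Mid scar gave the same count, 16 lower and none higher, against 11.6% of all features called lower and 22.2% higher. The median of the members was -0.37 (all features 0.10), 34 of 37 were below 0, and for 10 members all mid biopsies were below all controls (5.57% of all features). The lowest were RPS3A, RPS3, RPL7, RPL3 and RPL5. RPS3A was at 0.24 to 0.71 (median 0.38) in mid scar, below all controls, a difference of -0.74 ± 0.13 (adjusted p = 0.000391). RPS3, which lines the entry of the messenger RNA and also has a role in DNA repair, was at 0.65, 0.28, 0.63 and 0.71 in controls (49R, 49L, 50L, 50R) and at -0.39 to 0.43 (median -0.15) in mid scar. It fell by 0.65 ± 0.17 (adjusted p = 0.00609), with control 49L inside the range of the scars, and without the limit set on local background its call was lost (-0.55, adjusted p = 0.155). RPL7, a large subunit protein next to the small RNA, was at 0.77, 0.98, 1.29 and 1.05 in controls and at 0.16 to 0.65 (median 0.39) in mid scar. All 8 mid biopsies were below all controls, and the difference was -0.64 ± 0.11 (adjusted p = 0.000271). RPL3 (-0.63 ± 0.12, adjusted p = 0.000664) and RPL5 (-0.62 ± 0.14, adjusted p = 0.00257) were lower again without overlap, though without that limit RPL5 was at -0.53 (adjusted p = 0.165). Of the mid calls, RPL14, RPL22, RPL30, RPL32, RPS12, RPS13 and RPS23 were lost in at least 1 fit that left out an array, among them RPL32 (adjusted p = 0.0845) and RPS12 (0.0585) without control 50L, RPL30 without control 49R (0.0512) and RPS23 without either (0.0635 and 0.0621). The stalk genes came closest to the threshold here, RPLP2 with -0.38 ± 0.15 (adjusted p = 0.0559) and RPLP0 with -0.33 ± 0.16 (adjusted p = 0.119). These are the values of the brightest probes. Of the 13 RPLP0 probes 8 were called lower in mid scar, while RPLP2 had 1 probe.

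In late scar 13 members were lower and 1 was higher than in control, against 13.3% and 26.6% of all features. The median of the members was -0.25 (all features 0.10), 33 of 37 were below 0, and 4 members had all late biopsies below all controls (6.18% of all features). These 4 were RPS3A, RPL7, RPL3 and RPL27. RPS3A was at -0.01 to 0.63 (median 0.47) in late scar and differed from control by -0.76 ± 0.13 (adjusted p = 0.000164). RPL7 was at 0.13 to 0.62 (median 0.37) and differed by -0.66 ± 0.11 (adjusted p = 0.000115), and RPL3 was at -0.12 to 0.97 (median 0.68) and differed by -0.60 ± 0.12 (adjusted p = 0.000656). RPS12, a small subunit protein of the beak region, went from 1.41, 1.42, 1.89 and 1.56 in controls to 0.40 to 1.44 (median 1.04), with a difference of -0.58 ± 0.15 (adjusted p = 0.00601). Without the limit set on local background the late difference of RPS12 was -0.16 (adjusted p = 0.754) and that of RPL5 -0.06 (adjusted p = 0.885). RPL32 was at 0.63, 0.96 and 0.55 in the 3 controls that had a value and at -0.27 to 0.66 (median 0.12) in late scar, with a difference of -0.56 ± 0.17 (adjusted p = 0.012). Without control 50L this call was lost (-0.44, adjusted p = 0.0911). The late calls of RPL5, RPL14, RPL22 and RPL36AL were also lost on leaving out 1 array, RPL36AL without control 50L alone (adjusted p = 0.114), RPL14 without control 49R (0.106) or 50L (0.0516), RPL22 in 5 and RPL5 in 7 of 12 such fits. Without both late hypo biopsies of animal 50, 6 members were called, all lower.

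RPL13A was the exception in late scar. This large subunit protein can leave the ribosome on inflammatory signals and then silences some messenger RNAs, and its gene is another common PCR reference. Its controls were at -0.15 (49R), -0.56 (49L), -0.11 (50L) and -0.04 (50R), and its late scars ran from -0.28 through 0.17 to 0.42. The late level was 0.32 ± 0.11 higher (adjusted p = 0.0233), with overlap, and the lowest control, 49L, carried part of it: without that array the difference was 0.21 (adjusted p = 0.144), and without late sham hyper 50L it was 0.28 (adjusted p = 0.056). The sign was not stable across scalings, since it was -0.90 with array median centring in place of loess and -0.07 with the Cy5 channel alone.

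Over the 3 phases, 11 genes were called lower each time, and 2 of them, RPS3A and RPL7, kept all 3 calls under each alternative processing and with any single array left out. The 11 were RPL3, RPL5, RPL7, RPL14, RPL22, RPL27, RPL32, RPL36AL, RPS3A, RPS4X and RPS12. The 3 comparisons share the 4 control arrays, so their values are given side by side and are not separate evidence. Among those not yet described, RPS4X and RPL27 were picked after their values were seen. RPS4X, encoded on the X chromosome, was at 0.73, 0.86, 0.87 and 1.03 in controls (49R, 49L, 50L, 50R) and differed by -0.61 ± 0.15, -0.54 ± 0.15 and -0.53 ± 0.15 in early, mid and late scar (adjusted p = 0.00346, 0.0106 and 0.00981). With the slide as a fixed block the early and mid calls of RPS4X were lost (adjusted p = 0.0526 and 0.0559), as were all 3 of RPL32 (0.43, 0.381 and 0.258), early RPS12 (0.0604) and late RPL5 (0.0642). RPL27 was at 0.78, 0.53, 0.87 and 0.52 in controls and differed by -0.65 ± 0.11, -0.49 ± 0.11 and -0.48 ± 0.11 (adjusted p = 8.71e-05, 0.00166 and 0.00132). A further 17 members, each read by its brightest probe, were called in none of the 3 phases. They were RPL6, RPL10, RPL10A, RPL11, RPL23, RPL29, RPL35, RPS10, RPS20, RPS21, RPS26, RPS28, RPSA, both stalk genes, RPL26L1 and RPL7L1. The remaining 9 were called in 1 or 2 phases.

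**Figure D3:**
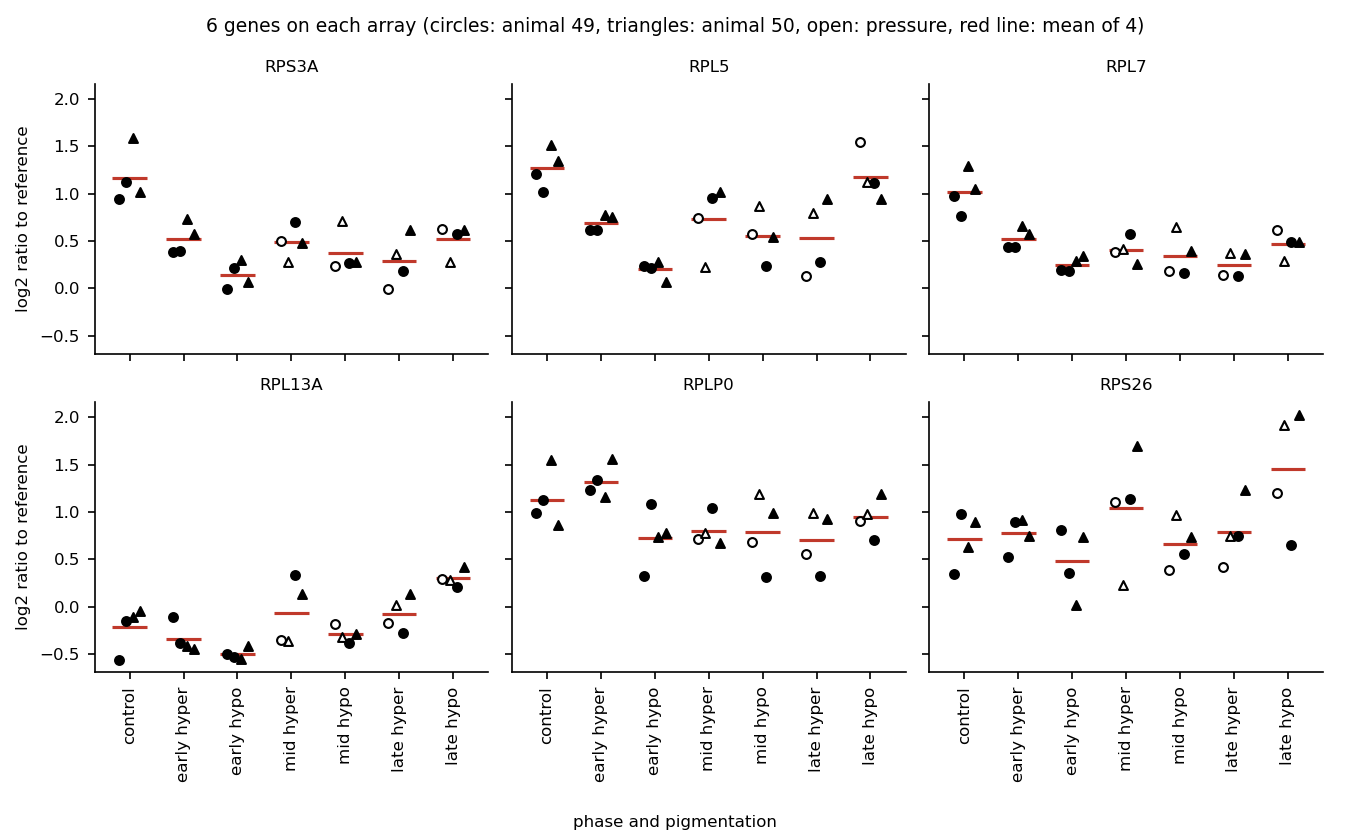
Log2 ratio to the reference (vertical axis) of 6 genes on each array, by phase and pigmentation (horizontal axis), with circles for animal 49, triangles for animal 50, open symbols for pressure and a red line for the mean of 4 arrays. RPS3A and RPL7 are below all controls on every scar array, RPLP0 overlaps control throughout, and RPS26 reaches 2.03 and 1.92 on the late hypo arrays of animal 50. Those late hypo arrays had the lowest shares of probes well above background, 31.4 and 33.9%.

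The members' median was below 0 in both animals and on each slide that held both control and scar. Within animals the members' median was -0.42 to -0.26 in early, -0.35 to -0.31 in mid and -0.26 to -0.21 in late scar. On the 2 slides that held both control and early scar it was -0.61 to -0.17, on the 2 with mid scar -0.44 to -0.28, and on the 3 with late scar -0.63 to -0.20. Each slide had 1 or 2 arrays a side for this, so the values are a description with no test. On 1 slide, with 1 array a side, 26 of 37 members were below 0 in early and again in late scar. Leaving out single arrays gave 12 to 19 called members in early, 10 to 18 in mid and 9 to 17 in late scar, each lowest count without control 50L.

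The size of the decrease depended on how the arrays were scaled, and its direction did not in the scalings tried. The 98 other features whose mean Cy5 lay between the members' quartiles had medians of 0.877, 0.881 and 1.24 in early, mid and late scar, given as a description with no test. The members' median was -0.43, -0.49 and -0.48 in early, mid and late scar with the scanner program's own processed ratios (20, 24 and 26 called, all lower). With the Cy5 channel alone it was -0.47, -0.52 and -0.64 (21, 26 and 32 called, all lower), and with array median centring and no loess -0.88, -1.15 and -1.55 (30, 36 and 37 called, all lower). Without the limit set on local background the medians were -0.31, -0.26 and -0.12 with 12, 5 and 7 called, all lower.

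**Figure D4:**
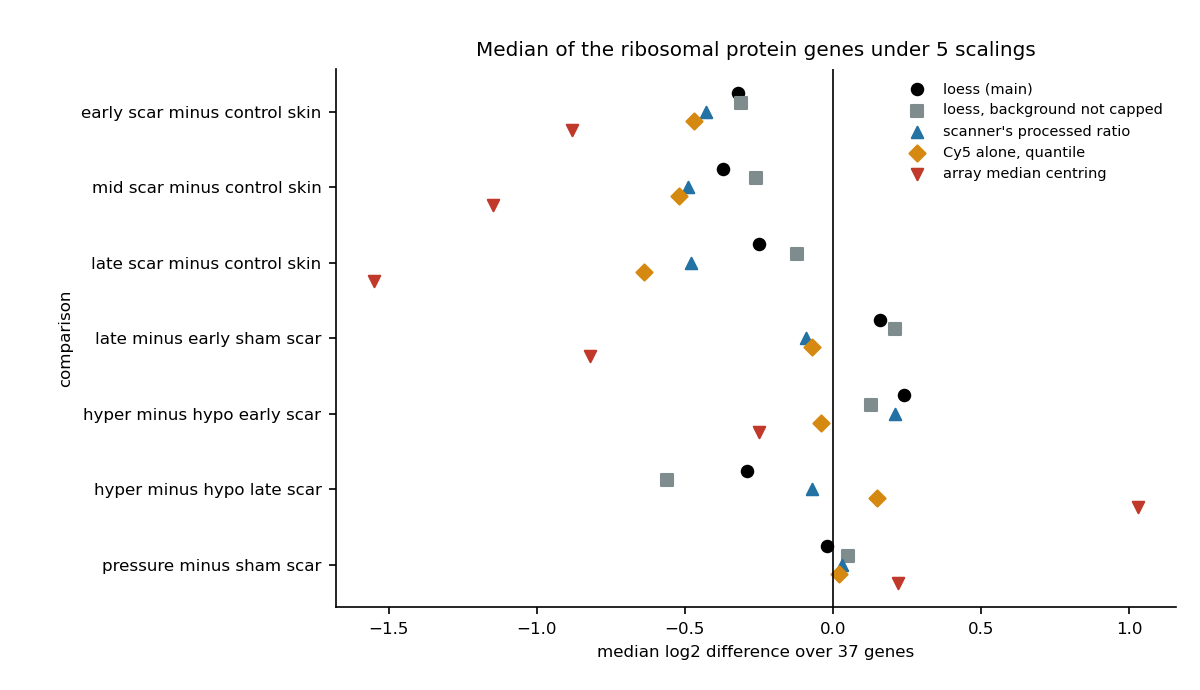
Median log2 difference over the 37 genes (horizontal axis) for 7 comparisons (vertical axis) under 5 ways of scaling the arrays, 1 symbol each. All symbols of the 3 comparisons with control lie left of 0, from -0.12 to -1.55, while late minus early and both hyper minus hypo comparisons have symbols on both sides of 0.

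Genes with several probes gave a second view of the same arrays. Of the 188 probes, 102 were called lower in early scar and none higher, or 54.3% of member probes against 17.7% of all kept probes. In mid scar 110 were lower and none higher (all kept probes: 14.1% lower), and in late scar 55.9% were lower and 1 probe was higher (all kept probes: 16.4% lower). Probes of 1 gene share their RNA and are not replicates. Of 31 genes with several probes, 24 had every probe below 0 in early scar and 25 in late scar. All 18 probes of RPL5, all 14 of RPL7 and all 8 of RPS3A were called lower in early scar, the RPL5 probes from -1.08 to -0.65. RPL6, with 13 probes, had none called, though all lay between -0.27 and -0.04. All 7 probes of RPS20 lay above 0, from 0.15 to 0.24, and none was called.

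In some genes the choice of the brightest probe mattered. The 6 probes of RPS10 ran from -0.32 for the brightest to -0.92 for the dimmest, and 5 were called lower although the gene, read by the brightest, was not. RPLP0 ranged from -0.61 to 0.03 over 13 probes in early scar, with 1 called lower there, 8 in mid and 8 in late scar. RPSA had 6 probes between -0.39 and 0.09, in early scar and between -0.68 and -0.26 in late scar, when 5 were called lower. RPL11 had 2 of 3 probes called lower in early and in late scar. RPL10A had 5, 5 and 4 of 8 called lower in early, mid and late scar, and neither gene was called. In RPS12 and RPS3 the brightest probe was the lowest in early scar (-0.47 to -0.21 and -0.57 to -0.28). Of their probes 2 of 6 and 2 of 3 were called lower there. RPL22 had 1 of 3 called lower in late scar. All these genes were picked after their probes were compared. In 20 of 31 genes the dimmest probe was lower than the brightest. With the mean of all probes of a gene in place of the brightest, 25 members were called in mid and 23 in late scar. The early limma call of RPS12 was then lost (-0.33, adjusted p = 0.0594).

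**Figure D5:**
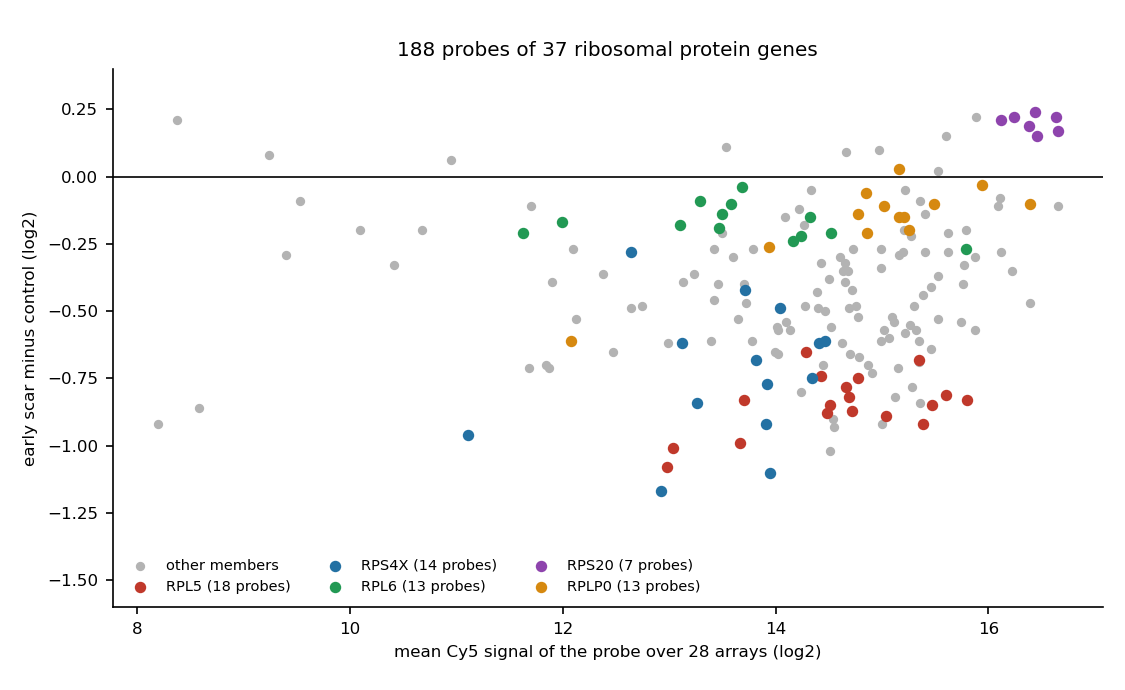
Early scar minus control skin (vertical axis, log2 difference) for the 188 probes against the probe's mean Cy5 signal over 28 arrays (horizontal axis, log2). Coloured points are the probes of 5 genes: RPL5 lies between -1.08 and -0.65, RPS20 between 0.15 and 0.24, RPL6 between -0.27 and -0.04, and RPS4X and RPLP0 spread more widely.

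The members varied to different degrees over the 28 arrays. RPS26, a protein at the exit of the messenger RNA, had the widest range, 2.02, from 0.02 to 2.03. Its level was 0.98, 0.35, 0.63 and 0.89 in controls (49R, 49L, 50L, 50R) and reached 2.03 (50L) and 1.92 (50R) in the late hypo biopsies of animal 50, against 0.65 (49L) and 1.20 (49R) in those of animal 49. Its late difference from control was 0.40 ± 0.22 (adjusted p = 0.16), and its 3 probes disagreed (0.40, -0.37 and 0.29, of which the second was called lower, adjusted p = 0.0208). The late hypo arrays of animal 50 had the lowest shares of probes well above background of all 28, 31.4 (50L) and 33.9% (50R). With array median centring their members' medians were the lowest too, at -1.24 each. Probes for added spike-in RNA read 2.47 (50L) and 2.86 (50R) there after loess. The part of this in the RPS26 values was not tested. RPS3A (range 1.60) and RPS15, near the decoding site (1.57), were the next most variable, and RPL10 (0.82), RPL26L1 (0.72) and RPL7L1 (0.60) varied least. Over the 28 arrays the median Pearson correlation between 2 members was 0.50 (666 pairs, -0.34 to 0.93). These values share the arrays, the reference and the scaling. RPSA followed the median of the other members least (r = 0.08), with RPL7L1 at 0.20 and RPL26L1 at 0.29.

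Differences between the phases of scar were mostly below the threshold. Of the 4 late against the 8 early sham biopsies, RPL13A alone was called, against 9.88% of all features called higher and 10.1% lower, and 24 of 37 members were above 0 (median 0.16, all features 0.04). RPL13A was at -0.55 to -0.11 (median -0.43) in early scar and at -0.28 (49L) and 0.13 (50L) in late sham hyper and 0.21 (49L) and 0.42 (50L) in late sham hypo scar. It was 0.54 ± 0.11 higher (fold 1.45, adjusted p = 0.00304), with 3 of 4 late biopsies above all early ones, and -0.39 (adjusted p = 0.192) under array median centring. The call was also lost without the limit set on local background (adjusted p = 0.0862) and with the slide as a fixed block (0.0688). In animal 49 alone the difference was 0.34 and in animal 50 alone 0.73. The 3 RPL13A probes gave 0.54, 0.61 and -0.07, the last a dim one (mean Cy5 8.37). Next came RPL36AL (0.32 ± 0.11, adjusted p = 0.0521), RPL5 (0.37 ± 0.14, adjusted p = 0.0688) and RPL10 (-0.28 ± 0.12, adjusted p = 0.0847). The scanner program's ratios gave 1 higher and 5 lower members in this comparison and array median centring 28 lower, so its direction over the members is not settled.

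Mid against early sham scar had no called member by limma (2 at an unadjusted p under 0.05, 6.43% of all features called), with RPL13A closest (0.36 ± 0.11, adjusted p = 0.0512) and RPL22 next (0.28 ± 0.13, adjusted p = 0.19). Late against mid scar had none either (5 at an unadjusted p under 0.05, 0.00533% of all features called). RPL13A again had the lowest p (0.29 ± 0.09, adjusted p = 0.32), followed by RPS3 (0.41 ± 0.14, adjusted p = 0.334).

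Pigmentation was the study's main question. Over all phases no member passed the threshold between hyper and hypo scar (limma, 0 at an unadjusted p under 0.05, 0.0107% of all features called), and the members' median was -0.02. This pools phases whose medians lay on opposite sides, 0.24 in early and -0.29 in late scar, so differences can cancel in it. RPS21, RPL11, RPL26L1 and RPS13 had the lowest p, with differences of -0.19 ± 0.10, 0.12 ± 0.10, -0.10 ± 0.08 and -0.11 ± 0.10, all at an adjusted p of 0.998. In hyper against hypo scar the 95% interval of the difference was -0.40 to 0.02 for RPS21.

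In early scar the members were on the higher side in hyper biopsies: 36 of 37 were above 0, with a median of 0.24 (all features 0.03). None was called (7 at an unadjusted p under 0.05, 0.00% of all features called). For 9 members all hyper biopsies were above all hypo biopsies, against 4.16% of all features. RPLP0 had the lowest p. It was at 1.34 (49R), 1.23 (49L), 1.16 (50L) and 1.56 (50R) in hyper and at 1.08, 0.32, 0.74 and 0.78 in hypo scar, 0.59 ± 0.19 higher without overlap (adjusted p = 0.998). RPL5 was at 0.62, 0.62, 0.78 and 0.75 in hyper and at 0.22, 0.24, 0.28 and 0.07 in hypo scar, again without overlap (0.49 ± 0.17, adjusted p = 0.998). RPL29 (0.37 ± 0.13) and RPS3A (0.38 ± 0.15) were next at the same adjusted p. The 98 features of like brightness had a median of 0.438, so nothing particular to the members is read from this shift. The median was 0.21 to 0.27 within the animals, 0.21 with the scanner program's ratios, -0.04 with the Cy5 channel alone and -0.25 with array median centring, so the side on which the members lay followed the scaling.

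In late scar 35 of 37 members were lower in hyper than in hypo biopsies (median -0.29, all features -0.06), and only RPL5 was called, against 4.86% of all features called lower. The 98 features of like brightness had a median of -0.992, and 50% of them were called lower, so the same holds here. RPL5 was at 0.28 (49L) and 0.94 (50L) in sham and 0.13 (49R) and 0.80 (50R) in pressure hyper scar, and at 1.11, 0.94, 1.55 and 1.12 in hypo scar in the same order. The difference was -0.64 ± 0.17 (adjusted p = 0.0291), and the gap was wider in animal 49 than in animal 50. Leaving out late sham hyper 49L, late pressure hyper 49R, late pressure hypo 49R, late sham hypo 49L or late sham hypo 50L each ended the call (adjusted p = 0.198, 0.142, 0.108, 0.0768 and 0.0574), as did several alternatives, and its sign turned with array median centring (0.68, adjusted p = 0.132). RPS18 (-0.58 ± 0.19, adjusted p = 0.0718), RPL13A (-0.38 ± 0.13, adjusted p = 0.0865), the only member without overlap (7.77% of all features lower without overlap), and RPS10 (-0.52 ± 0.18, adjusted p = 0.0965) followed. Over the members the median was -0.07 with the scanner program's ratios and 0.15 with the Cy5 channel alone, and array median centring called 28 members higher.

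Hyper against hypo mid scar had no called member (limma, 3 at an unadjusted p under 0.05, 0.00% of all features called). RPS15 was closest (0.51 ± 0.19, adjusted p = 0.518) and the only member whose groups did not overlap (0.629% of all features higher without overlap), then RPL11 (0.40 ± 0.16) and RPS10 (0.44 ± 0.18) at the same adjusted p. RPS15 had no value on mid pressure hyper 50R, the mid hyper array with the lowest members' median (0.26). Its lack of overlap does not cover that biopsy. The change of the pigmentation difference from early to late sham scar was tested directly and passed for no member (10 at an unadjusted p under 0.05, 0.00% of all features called). The members' median change was -0.49, with RPL5 at -0.90 ± 0.29 (adjusted p = 0.273), RPS15 at -0.92 ± 0.31 (adjusted p = 0.318) and RPLP0 at -0.91 ± 0.33 (adjusted p = 0.346). The opposite sides of early and late scar are therefore not shown to differ.

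Pressure gave no called member over mid and late scar (limma, 1 at an unadjusted p under 0.05, 0.00% of all features called), with 8 pressure against 8 sham biopsies. The median was -0.02 over both phases, -0.06 in mid and 0.00 in late scar. RPL3 had the lowest p, with a difference of -0.29 ± 0.10 (adjusted p = 0.906, 95% interval -0.49 to -0.08). It was at 0.34 (49R) and 0.41 (50R) in mid pressure hyper, 0.66 and 0.55 in mid pressure hypo, -0.12 and 0.65 in late pressure hyper and 0.59 and 0.72 in late pressure hypo scar. The sham biopsies of the left side were at 0.77 (49L) and 1.02 (50L), 0.41 and 0.66, 0.75 and 0.64, and 0.97 and 0.89 in the same order, so the groups overlapped. RPS13 (-0.19 ± 0.11), RPL13A (-0.13 ± 0.09) and RPL26L1 (-0.12 ± 0.10) came next, with adjusted p from 0.906 to 0.911. Within mid scar alone no member had an unadjusted p under 0.05, and within late scar 2 did (0.00% of all features called in each), RPL3 (-0.35 ± 0.14) and RPS23 (-0.35 ± 0.15), both at an adjusted p of 0.862.

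Other genes of the translation machinery were read from lists, of which only part had a matched probe. Of 2 measured proteins tied to the subunits, both were lower in early and mid scar and 1 in late scar, with 0 to 2 called in each phase over the alternatives. RACK1, a scaffold on the small subunit, differed by -0.40 ± 0.14, -0.54 ± 0.14 and -0.49 ± 0.14 (adjusted p = 0.023, 0.00493 and 0.00717 in early, mid and late scar). The early call of RACK1 was lost without control 49R (adjusted p = 0.099) or 50L (0.0727). Of 9 measured translation factors 1 was higher and 3 lower in early, 1 and 2 in mid, and 1 and 3 in late scar, with medians of -0.34, -0.30 and -0.29. Over all features 24.1, 22.2 and 26.6% were called higher and 14.8, 11.6 and 13.3% lower in the 3 phases, and the factors called numbered 1 to 6, 1 to 8 and 2 to 7 over the alternatives. EIF6, which keeps the subunits apart during assembly, fell in early scar by 0.76 ± 0.18 (adjusted p = 0.00245), and EEF1E1, a partner of the transfer RNA synthetases, by 0.74 ± 0.14 (adjusted p = 0.000443). The scaffold of the cap-binding complex, EIF4G1, was 0.78 ± 0.19 higher in mid scar (adjusted p = 0.00357) and 0.73 ± 0.19 in late scar (adjusted p = 0.00426), though not past the threshold without the limit set on local background (0.44, adjusted p = 0.126, and 0.46, adjusted p = 0.109) or, in late scar, with array median centring (0.25, adjusted p = 0.12).

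Of 8 measured genes of ribosome assembly, 1 rose and 2 fell in early scar, and 3 fell and none rose in mid and in late scar. Against the same shares of all features, this count of called genes was 2 to 4, 0 to 6 and 1 to 8 over the alternatives. NIP7, needed for maturation of the subunits, fell by 0.82 ± 0.13, 0.73 ± 0.13 and 0.85 ± 0.13 in early, mid and late scar (adjusted p = 5.73e-05, 0.000388 and 4.88e-05). PES1, of the large subunit's assembly complex, fell by 0.62 ± 0.13 in early scar (adjusted p = 0.000731), where RRP36 rose by 0.61 ± 0.16 (adjusted p = 0.00541), a call lost with array median centring (0.31, adjusted p = 0.252). Of 9 measured regulators of ribosomal protein synthesis 3 rose and 2 fell in early scar, where 24.1% of all features were called higher and 14.8% lower, and the alternatives called 1 to 6 of them. MYC, a transcription factor that drives ribosome production, fell by 1.15 ± 0.19 in early (adjusted p = 7.82e-05) and 0.76 ± 0.19 in mid scar (adjusted p = 0.00435). In late scar MYC differed by -0.50 ± 0.19 (adjusted p = 0.0379), a call that was lost in 7 of 12 fits without 1 array (adjusted p = 0.133 without control 49L and 0.105 without control 50L). EIF2AK2, the kinase that halts translation on double-stranded RNA, rose by 0.85 ± 0.16, 1.01 ± 0.16 and 0.98 ± 0.16 (adjusted p = 0.000386, 0.000164 and 0.000113), of which the late call was lost with array median centring (adjusted p = 0.117). The ribosome of mitochondria is built from other proteins: 1 of 7 measured, MRPS18B, was lower in each phase (-0.68 ± 0.14 in early scar, adjusted p = 0.0008). That count is close to the 14.8, 11.6 and 13.3% of all features called lower, and it was 0 to 3, 0 to 5 and 0 to 7 in early, mid and late scar over the alternatives.

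The cell makeup moved with the same groups, and the array quality was lower on average in mid and late scar but not in early scar. The mean log2 ratio of 5 measured hair and gland markers of 10 was 3.07 to 3.49 on control arrays and -0.86 to 1.33, -0.85 to 1.62 and -0.79 to -0.14 on early, mid and late arrays. Of them 4, 5 and 4 were called lower. For 6 of 20 keratinocyte markers the range was 2.56 to 2.80 in control and -1.61 to 1.64, 0.52 to 2.58 and 0.48 to 2.83 in early, mid and late scar (4, 2 and 3 called lower). For 10 of 14 fibroblast and matrix markers it was 0.76 to 2.05 in control and 3.64 to 4.78, 2.23 to 3.93 and 1.96 to 4.11 in scar (10, 7 and 6 called higher). Sebaceous markers, 6 of 10 measured, were at 1.54 to 1.80 in control and -0.49 to 0.66 in scar, with 5 called lower each time. Ranges of control and early scar were also apart for markers of adipocytes (0.59 to 1.59 and -0.71 to 0.27), melanocytes (0.66 to 1.1 and -0.14 to 0.40), endothelium (-0.85 to 0.07 and 0.38 to 0.90) and macrophages (-2.58 to -1.67 and -1.58 to -0.15). Skeletal muscle markers were at -3.30 to -2.99 in control and reached 2.34 on a late array. Of the hair and gland markers 2 were not well above background on any late array, and none of the keratinocyte and fibroblast markers was in that position. Probes well above background made up 41.5 to 55.7% per control array (mean 48.5) and 44.9 to 55.4% per early array (mean 49.7). They made up 40.2 to 49.8% per mid array (mean 44.9) and 31.4 to 47.1% per late array (mean 39.8). The part of these shifts in the ribosomal protein differences was not tested.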

How the data were processed

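RNA of 28 biopsies was isolated, amplified and labelled with a two-colour kit, biopsy in Cy5 and reference in Cy3 without dye swap, per the labels' protocols, on 7 slides of 4 arrays. Agilent Feature Extraction 10.7.1.1, per the file headers, gave median spot and background intensity, processed intensity and their log10 ratio. The authors also deposited a table of log2 values, which lay within 0.001 of the log2 ratio of processed red to green for 99.4% of probes on every array. Aligner and genome build do not apply, and no coordinates are used.

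Median intensities were background-corrected with normexp (offset 50, local background capped at the 99th percentile of array and channel) and normalised by loess with limma 3.58.1 (R 4.3.3), and spots the scanner program had set aside were missing. Probes well above background in Cy5 on at least 4 arrays were kept (24510 of 43603). A gene was read by its probe of highest mean Cy5. A single limma model of 11 group means with the animal as a block gave 14 comparisons, adjusted by Benjamini-Hochberg over 18765 features. No 2 arrays held identical values, and the number of arrays limits the precision.

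Members and gene lists were chosen with earlier results of these data known. In each comparison the text names up to 5 highest and 5 lowest called members, or up to 4 of lowest p where fewer than 4 passed, the stalk proteins, the paralogues and RPL7L1, the 3 widest and 3 narrowest ranges, and up to 3 genes of lowest p of each other list. Further names belong to full lists of called or uncalled genes or are said to be chosen after their values were seen. RPL11 in early scar, named as the partner of RPL5, and RPL6 among the probes stand outside this rule. The animal and side in the labels pair biopsies, since same-numbered biopsies come from the same pig. Deviations of biopsies from their group means had a median correlation of 0.02 within an animal, 0.03 within animal and side and -0.02 between animals. Alternatives were the scaling, the source of values, the filter, the summary of probes, the blocks, the arrays fitted, each animal alone and each array left out. The 2 stretches of title code without a stated meaning or unit were not used. Results for some genes are not reported here, though counts and medians over the members include them.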

Additional observations from a re-analysis of the deposited data

Results flagged for a closer look

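In groups of 4 biopsies the gap of the highest or lowest to the next was set against the group's range for 27 genes and the members' median in 3 groups, 82 sets of 4 values in all, and chance alone would single out about 1 group in 20. Control 49L had the lowest RPS13 level, 0.34, with the next control at 0.88. Early hyper biopsy 50R had the highest RPL22 level, 0.45, with the next at 0.32, and early hyper biopsy 49L the lowest RPL26L1 level, 0.11, with the next at 0.19.

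RPL13A differed between late and early sham scar by 0.54 (log2), the only member for which the difference between phases itself passed the limma threshold. That value is of its brightest probe, and the other probes gave 0.61 and -0.07.

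Outside the genes, the 10 E1A control probes, which read added spike-in RNA and no pig gene, had a median log2 ratio after loess of 1.24 on late scar arrays against -0.26 on control arrays, with 0.75 on early and 1.04 on mid scar arrays. With array median centring in place of loess, their medians were -0.02 on control, 0.65 on early, 0.60 on mid and 0.48 on late arrays. The rise from early to late scar thus depended on the scaling. The part of these probes in the members' values was not tested.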

How the results depend on the processing

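Over 17 alternatives the members' median stayed below 0 against control, from -0.88 to -0.22 in early, -1.15 to -0.26 in mid and -1.55 to -0.12 in late scar, while the number of called members ranged from 6 to 30, 3 to 36 and 3 to 37. Some of the 17 could not move this median. Scaling mean intensities between arrays leaves the ratios unchanged, no member spot was saturated, and every member probe passes the filters on dim probes. The authors' table nearly repeats the scanner program's ratios, so the 17 are not separate evidence. Of 1449 gene values under alternatives 1257 kept their side of the threshold and direction, and 4 turned. Without the background cap 5 members were called in mid, 7 in late and 0 in late against early scar. The scanner program's ratios and the authors' table each gave 26 in late scar, 6 in late against early and 0 in hyper against hypo late scar. Array median centring gave 30, 36 and 37 against control, 28 in late against early and 28 in hyper against hypo late scar. It turned RPL13A in late scar (-0.90) and in late against early scar (-0.39), and RPL5 in hyper against hypo late scar (0.68). The Cy5 channel alone gave 26 in mid, 32 in late, 2 in late against early and 0 in hyper against hypo late scar, and turned RPL13A in late scar (-0.07). The mean of all probes gave 25, 23, 2 and 0 in the same order. Fitting only the groups compared gave 9 in late, 1 in mid against early, 3 in late against early and 0 in hyper against hypo late scar. Animal 49 alone gave 6 in mid, 5 in late, 1 (lower) in late against early, 1 in hyper against hypo mid and 6 in hyper against hypo late scar. Animal 50 alone gave 6 in early, 3 in mid, 3 in late and 0 in hyper against hypo late scar. Without both late hypo biopsies of animal 50, an alternative chosen after seeing the data, late scar had 6 and hyper against hypo late scar 0. The fits on fewer arrays hold fewer samples, and for the others the cause was not tested. Other counts of members were within 1.5 times. Counts of the other gene lists moved further and are given beside those lists.

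With no replicate block 2 members were called in late against early scar. With the replicate block of animal and side 16 were called in early, 15 in mid and 13 in late scar, and RPL14 in mid scar was lost (adjusted p = 0.0568). These blocks changed no other call against control of a member described here. Late against early scar had 0 called with slide as a fixed block and 2 with slide as a random block. Leaving out each array in turn gave 12 to 19 in early, 10 to 18 in mid, 9 to 17 in late, 0 to 1 in mid against early, 1 to 2 in late against early and 0 to 4 in hyper against hypo late scar.

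The limit set on local background, the 2 animals, the shared 4 controls and the dependence of bright probes on scaling limit what their levels show.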
